A study of Homo sapiens with 24 samples.

Results

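The response of Eahy926 cells to interleukin 1 beta (IL1b) was examined in 4 of the 24 libraries of the series. They are the 2 libraries labelled Eahy926, IL1b (1.1 and 1.2) and the 2 control libraries labelled Eahy926, ctrl from the same library day (1.1 and 1.2). Eahy926 is a human hybrid line made by fusing umbilical vein endothelial cells with A549 lung carcinoma cells. All 4 libraries come from parental cells in DMEM with 10% FBS, a medium without vascular endothelial growth factor (VEGF). Controls were untreated, and treated cells received 10 ng/ml recombinant human IL1b for 24 h. Acetylation of lysine 27 of histone H3 (H3K27ac) was measured by chromatin immunoprecipitation and sequencing (ChIP-seq), with peaks called in each library. The number before the dot is the library day and the number after it the biological replicate. Further libraries served for comparison. In Eahy926 these were 2 untreated controls of library day 0, 2 libraries from cells given tumor necrosis factor alpha (TNFa) at the same dose and for the same time, and 2 libraries with VEGF added. TeloHAEC are aortic endothelial cells immortalized with telomerase and grown in medium with VEGF. From TeloHAEC came 2 controls each of library days 0 and 1 and 2 libraries after 24 h with 10 ng/ml IL1b. All ChIP libraries entered the tests, among them 2 of TeloHAEC after 24 h with 10 ng/ml TNFa and 2 after 24 h without VEGF.

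IL1b binds the receptor IL1R1, which pairs with the accessory protein IL1RAP and recruits the adaptor MYD88 and the kinases IRAK4 and IRAK2. TRAF6, MAP3K7 and TAB2 pass the signal to the IkB kinases IKBKB and CHUK, which free the transcription factor NF-kB (RELA with NFKB1) to enter the nucleus. In endothelial cells NF-kB turns on adhesion molecules for leukocytes (SELE, VCAM1, ICAM1), chemokines (CCL2, CXCL8), cytokines, and its own inhibitors NFKBIA and TNFAIP3. H3K27ac marks active promoters and enhancers, and gains of it at such genes are a usual sign that their regulatory DNA has become active.

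The promoters of 3 of these genes are shown because NF-kB sites lie close to their start, and because acetylation of the surrounding DNA differed in pattern between them. The sequences are the 250 bases before each gene's start, 5′ to 3′ on the gene's strand, from RefSeq on GRCh38.p14. Capitals mark matches to GGGNNTTCC or GGAANTTCC, forms of the NF-kB site, searched on both strands. GGAANTTCC reads as itself on the other strand, so its matches there are the same bases, and neither motif overlapped the other in these 3 promoters. GGGNNTTCC occurred in 5.81% and GGAANTTCC in 0.831% of 27305 RefSeq promoters of this length, and 6.57% held either. These forms were chosen after a looser one was seen to match most promoters. A match is a description of letters, not of binding.
NFKBIA, chr14:35404750-35404999, minus strand: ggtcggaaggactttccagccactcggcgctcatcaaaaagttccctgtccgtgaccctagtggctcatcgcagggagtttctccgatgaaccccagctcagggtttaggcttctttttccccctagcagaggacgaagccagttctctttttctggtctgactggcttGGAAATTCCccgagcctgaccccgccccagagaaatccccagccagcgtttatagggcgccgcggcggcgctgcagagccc
CXCL8, chr4:73740319-73740568, plus strand: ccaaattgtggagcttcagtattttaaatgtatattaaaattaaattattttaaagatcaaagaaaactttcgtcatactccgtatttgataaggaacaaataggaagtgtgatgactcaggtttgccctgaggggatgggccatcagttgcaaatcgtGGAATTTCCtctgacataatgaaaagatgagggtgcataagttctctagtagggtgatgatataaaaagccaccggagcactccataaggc
SELE, chr1:169734080-169734329, minus strand: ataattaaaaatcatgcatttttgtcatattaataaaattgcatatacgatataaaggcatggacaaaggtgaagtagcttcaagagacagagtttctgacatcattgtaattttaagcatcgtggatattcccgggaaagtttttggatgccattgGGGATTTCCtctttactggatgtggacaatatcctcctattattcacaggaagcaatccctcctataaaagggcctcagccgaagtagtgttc

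The peak files are on hg19, so the values beside these promoters are for the 10-kb hg19 bin that holds each gene's start. In the NFKBIA bin the covered length (scaled bp under called peaks) was 1659 and 1158 bp in the day 1 controls (1.1 and 1.2) and 1201 and 1082 bp with IL1b. The NFKBIA promoter region was thus acetylated with and without the cytokine, and the groups overlapped. In the CXCL8 bin the controls had 0 and 760 bp and both IL1b libraries 0 bp, while TeloHAEC went from 0 and 1030 bp in controls to 1951 and 2516 bp with IL1b. Both deeper day 0 controls of Eahy926 were covered in the CXCL8 bin, with 1492 and 1379 bp, and those of TeloHAEC held 1745 and 1378 bp there. In the SELE bin all 10 Eahy926 ChIP libraries were at 0, against 1007 and 479 bp in the IL1b libraries of TeloHAEC, whose day 1 controls were at 0. Untreated TeloHAEC cells of day 0 held 630 and 482 bp in the SELE bin, so the IL1b libraries overlapped them.

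Covered length is the number of bp of a 10-kb bin under peaks with −log10 q of 2 or more, scaled so that every library has the same total. It says where and how far acetylation was called, not how many reads lay there, and a bin at 0 has no called peak. The 4 libraries held 5568829 to 7122108 tags, 27425 to 39617 autosomal peaks and 14.09 to 22.58 Mb under peaks. IL1b 1.2 stood apart with the fewest tags, the shortest list and 16901 of 36576 tested bins at 0, against 12188 to 13304 in the other 3 libraries. Scaling spreads its total over fewer bins. In TeloHAEC the list of day 1 control 1.1 was as short, with 3843129 tags, 28447 peaks and 12.97 Mb, against 43088 peaks in control 1.2 and 53697 and 45801 in the IL1b libraries. In the 17479 bins covered in all 4 libraries the median log2 difference was 0.12, and 14 of these bins were called. The day 0 controls had 18742086 and 21135399 tags, and the 4 input libraries held 92 to 123 peaks each. With 2 libraries in each group, an exact permutation test cannot reach 0.05, so the p-values come from limma, which shares the spread over all 20 ChIP libraries.

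IL1b produced no called change at the loci where a response was looked for. Lists of 80 genes were used, with every tested bin within 20 kb of a gene. None of the 268 bins at these loci was called higher or lower with IL1b, where 0.839% of all 36576 tested bins were called (0.131% higher and 0.708% lower, limma, adjusted p under 0.05). A count of 0 is close to that low background and is no result about these loci by itself, so the same bins are given in 2 other comparisons. At an unadjusted p under 0.05, 2 bins were higher and 8 lower, where 2.34% and 5.51% of all tested bins were. The smallest adjusted p was 0.15, at TNIP1, an inhibitor of NF-kB signalling. The 29 response loci (NF-kB feedback, adhesion, chemokines, cytokines and effectors) hold 86 tested bins. TNFa raised 7 of them at 6 loci in the same line (0.949% of all tested bins were higher). IL1b raised 14 at 12 loci and lowered 1 in TeloHAEC (4.1% of all tested bins were called, 3.22% higher and 0.883% lower). Median log2 differences over the 86 bins were 0.00 for IL1b and 0.00 for TNFa in Eahy926 and 0.34 for IL1b in TeloHAEC, with 0.00 over all tested bins in each. The 2 Eahy926 comparisons use the same control libraries. In TeloHAEC, 18 bins over all lists were higher and 2 lower with IL1b. At equal peak numbers these were 12 and 4, and at equal covered length 5 and 3. Of the 18 higher bins 12 were also covered in both untreated day 0 controls of TeloHAEC, which were sequenced deeper, and 6 in neither. Of the 8 list bins that TNFa raised in Eahy926, 2 were covered in both day 0 controls of that line and 4 in neither. These TNFa counts were not repeated with lists of equal length.

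Among the NF-kB genes, NFKBIA, which encodes IkB alpha, kept its acetylation over 4 tested bins. The sum over its window was 5368 and 5054 bp in the controls and 5316 and 4828 bp with IL1b, with 5992 and 5032 bp with TNFa. TNFAIP3 encodes the ubiquitin-editing inhibitor A20. Its window had 3085 and 2897 bp in controls and 2082 and 1906 bp with IL1b, and no bin passed the test. The day 0 controls, at 2146 and 1986 bp, lay close to the IL1b libraries there. NFKB1, the p105 precursor and p50 subunit, had a bin at 0 in both controls and both IL1b libraries of Eahy926. TNFa raised it to 570.1 and 707.5 bp (log2 difference 2.06, adjusted p 0.0011), and IL1b in TeloHAEC raised it from 0 in the day 1 controls to 652.6 and 1538.5 bp. TeloHAEC day 0 controls held 221.1 and 177.0 bp in that bin. At TNIP1 a bin held 1237.5 and 1034.5 bp in the controls, 560.9 bp in IL1b 1.1 and 0 bp in IL1b 1.2. Both IL1b libraries lay below both controls at TNIP1, with a log2 difference of −1.77 ± 0.47 (SE) that missed the threshold. IL1b 1.2, the library with the short list, carried most of that difference.

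Of the adhesion genes, SELE, VCAM1 and CX3CL1 had little or no coverage in day 1 libraries of Eahy926, while ICAM1 was covered in both controls. SELE encodes E-selectin, which lets leukocytes roll on endothelium. Its window held 311 and 0 bp in the controls and 0 bp in both IL1b libraries. VCAM1, a ligand for leukocyte integrins, was at 0 in the window in every day 1 library of the line, whatever the treatment. Day 0 controls of Eahy926 held 416 and 371 bp in the VCAM1 window. In TeloHAEC the VCAM1 window went from 870 and 1373 bp to 2366 and 2012 bp with IL1b, and a bin of it rose from 0 to 1102.0 and 1071.0 bp. The day 0 controls of TeloHAEC, untreated, held 2226 and 2221 bp in the VCAM1 window and 723.4 and 567.2 bp in that bin. The window was thus as covered in untreated cells of day 0 as with IL1b. ICAM1, another integrin ligand, had 1076 and 774 bp in the Eahy926 controls and 743 and 0 bp with IL1b. A bin at ICAM1 was at 0 in those 4 libraries and at 495.1 and 361.1 bp with TNFa (log2 difference 1.64, limma, adjusted p 0.0092). That bin was not free of coverage in the untreated day 0 controls. The whole ICAM1 window held 1251 and 1447 bp on day 0 and 1107 and 1330 bp with VEGF, beside 1184 and 1046 bp with TNFa. Differences between the lines were called at the SELE bin (−2.18 ± 0.41, adjusted p 0.014) and the VCAM1 bin (−2.69 ± 0.61, adjusted p 0.040), both larger in TeloHAEC.

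A difference between lines was called at 2 of the 7 chemokine loci, CCL2 and CXCL8 (2 of 20 bins, larger in TeloHAEC). Of all tested bins 2.49% were called for this difference, 2.13% with the signed response lower in Eahy926 than in TeloHAEC. CCL2 attracts monocytes. Its window held 758 and 318 bp in the Eahy926 controls and 804 and 1011 bp with IL1b. Both IL1b libraries lay above both day 1 controls at CCL2, and no bin passed the test. Untreated day 0 controls of Eahy926 held 936 and 938 bp in that window, between the IL1b libraries. A bin at CCL2 was at 0 in all Eahy926 control, IL1b and TNFa libraries and at 1748.0 and 1694.7 bp with IL1b in TeloHAEC, whose day 1 controls were at 0 and day 0 controls at 380.1 and 626.5 bp. The difference between lines in that bin was −3.26 ± 0.25 (adjusted p 1.0e-04). CXCL8 attracts neutrophils. Its window held 1355 and 1965 bp in controls and 1318 and 1604 bp with IL1b, against 985 and 1838 bp and then 4311 and 5014 bp in TeloHAEC. The Eahy926 groups overlapped at CXCL8, and the IL1b libraries of TeloHAEC lay above every other day 1 library given here. The TeloHAEC day 0 controls held 3554 and 2822 bp at CXCL8, below the IL1b libraries and above the day 1 controls. CXCL1 and CXCL3, also neutrophil chemokines, each had a bin at 0 in day 1 controls and IL1b libraries that rose with TNFa, to 606.5 and 707.5 bp and to 317.9 and 322.9 bp. The CXCL1 bin was also covered in the untreated day 0 controls (539.1 and 502.0 bp) and with VEGF (308.3 and 589.5 bp), and the CXCL3 bin in none of these 4 libraries. In TeloHAEC another CXCL3 bin was lower with IL1b (log2 difference −1.41, adjusted p 0.017). CXCL10, a chemokine for T cells, and CX3CL1, which is both a chemokine and an adhesion molecule, had no peak in any Eahy926 library.

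Of the cytokines and effectors, IL6 was among the most acetylated. IL6 is a cytokine of the acute phase response, and its window held 2771 and 2225 bp in controls and 3481 and 2921 bp with IL1b. Both IL1b libraries lay above both controls at IL6, and its most changed bin went from 1407.8 and 1181.7 to 1811.8 and 2041.3 bp (log2 difference 0.51, adjusted p 0.50). SOD2 encodes mitochondrial superoxide dismutase and is a known NF-kB target. Its window held 634 and 651 bp in controls, 485 and 482 bp with IL1b and 2089 and 2120 bp with TNFa. The TNFa libraries stood far above all other Eahy926 libraries at SOD2. A bin there was at 0 in controls and with IL1b and at 1319.8 and 1041.2 bp with TNFa, a direct difference between the cytokines of −2.78 (adjusted p 0.00024). In TeloHAEC IL1b raised the same SOD2 bin from 0 to 748.8 and 796.1 bp. IL1A, itself a ligand of the receptor, had a bin at 0 in day 1 controls and IL1b libraries and at 882.2 and 801.4 bp with TNFa. The direct difference between the cytokines passed there (−2.38, adjusted p 0.040), while TNFa against the day 1 controls did not (adjusted p 0.062). Untreated day 0 controls held 868.4 and 263.6 bp in that bin, and the IL1A window held 3441 and 3157 bp on day 0, beside 3543 and 3277 bp with TNFa. IL32, a proinflammatory cytokine, had a bin at 0 in controls and with IL1b and at 764.9 and 462.9 bp with TNFa. Day 0 controls held 0 and 231.0 bp in the IL32 bin. At LIF and CSF2, growth factors for many cell types and for myeloid cells, bins stayed at 0 in the controls and IL1b libraries of Eahy926 and rose with IL1b in TeloHAEC, to 699.0 and 812.4 bp and to 621.1 and 1143.0 bp. The day 0 controls of TeloHAEC were at 0 in these LIF and CSF2 bins and in the SOD2 bin.

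**Figure D1:**
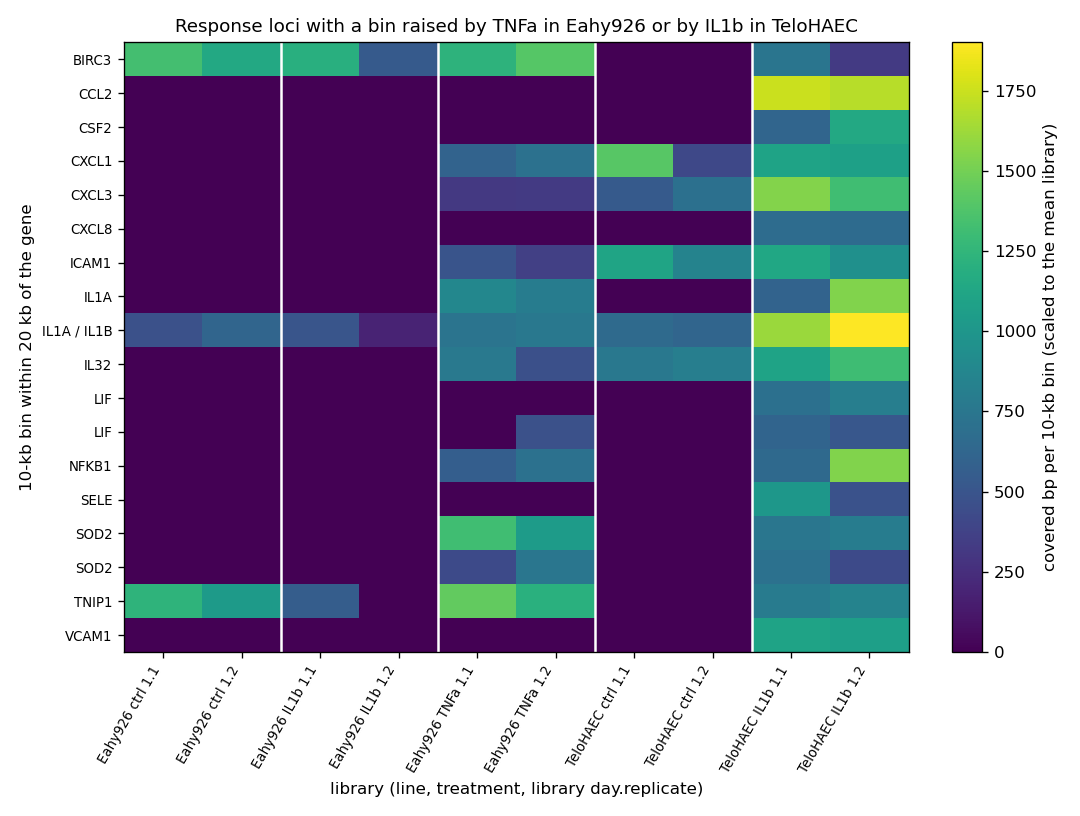
Covered bp (colour, 0 to 1900 bp per 10-kb bin, scaled) in each library (columns, by line, treatment and library day and replicate) for the 18 bins at response loci that rose with TNFa in Eahy926 or with IL1b in TeloHAEC (rows, by gene). The IL1b columns of Eahy926 resemble its control columns or lie below them, while SOD2 and NFKB1 bins are covered with TNFa in Eahy926 and with IL1b in TeloHAEC.

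Direct tests bore on both contrasts at the list loci. Between the cytokines in Eahy926, 10 list bins at 9 loci were lower with IL1b than with TNFa and 1 was higher (2.34% of all tested bins were called, 2.03% lower and 0.309% higher). The bin higher with IL1b lay at EGFL7, a secreted endothelial factor, with 1563.9 and 1097.8 bp against 219.4 and 541.1 bp. List lengths differed in this contrast too, from 14.09 Mb under peaks in IL1b 1.2 to 24.97 Mb in TNFa 1.2. Over all tested bins the excess of bins lower with IL1b than with TNFa was gone at equal covered length. The list bins of this contrast were not recounted with equal lists. Between the lines, 13 list bins had a response to IL1b lower in Eahy926 than in TeloHAEC and none a higher one (2.49% of all tested bins were called, 2.13% lower and 0.355% higher). They lay at VCAM1, SELE, IL1R2, IL1A and IL1B, CXCL8, NFKB1, CSF2, TNIP1, SOD2, BIRC3, IRAK3, CCL2 and LIF. Those at CXCL8, CSF2, SOD2, IRAK3 and LIF passed in every setting in which they could be tested (14 to 18 settings). These settings left out equal peak numbers and equal covered length for the CXCL8 and CSF2 bins, and equal covered length for the SOD2 bin. The IRAK3 and LIF bins could be tested in 15 and 16 settings, beside 18 for the SOD2 bin. Only 1 of the 2 tested bins at IRAK3, and 1 of 2 at LIF, could be tested at equal peak numbers. A pass of the IRAK3 and LIF bins with equal lists is thus not claimed. The bins at BIRC3, an inhibitor of apoptosis, and VCAM1 passed in 6 of 19 and 8 of 18 settings. With an equal number of top peaks from every library 5 list bins were lower in Eahy926 and 1 higher, and with equal covered length 3 were lower. Without TeloHAEC control 1.2 the split was 33 lower and 16 higher, and without the short control 1.1 it was 12 and 0. Of the 13 bins 9 were covered in both TeloHAEC day 0 controls, and those at CSF2, SOD2, IRAK3 and LIF in neither.

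Peaks at the receptor genes differed between the lines with and without treatment. IL1R1, the signalling receptor for IL1b, had no peak within 20 kb of the gene in any of the 10 Eahy926 ChIP libraries, not even below the q threshold. All 10 TeloHAEC libraries had peaks there, between 6 and 14. Its window of 7 tested bins held 0 bp in both controls, both IL1b libraries and both day 0 controls of Eahy926, whose depth reached 21135399 tags. In TeloHAEC it held 4070 and 5794 bp in day 1 controls and 3835 and 4686 bp with IL1b. IL1R2, the decoy receptor, and IL1RN, the receptor antagonist, also had no peak in any Eahy926 library. A bin at IL1R2 rose with IL1b in TeloHAEC, from 0 in the day 1 controls to 529.0 and 816.4 bp, with 211.6 and 549.8 bp in the day 0 controls. H3K27ac does not measure receptor protein, and no expression data were used here, so whether the absence of a peak bears on the response was not tested.

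Downstream of the receptor the loci were acetylated in both lines. IL1RAP, the accessory chain, held 3963 and 3296 bp in the Eahy926 controls and 4123 and 3167 bp with IL1b. IRAK2, a kinase that sustains the signal, held 8486 and 7725 bp and then 8606 and 9468 bp. Both IL1b libraries lay above both controls at IRAK2, but the largest log2 difference among its 7 bins in size was −0.46, with an adjusted p of 0.97. MYD88, IRAK4, TRAF6, MAP3K7, TAB2, IKBKB, CHUK and RELA had covered windows in all 4 libraries. IRAK3, which dampens the pathway, had a bin at 0 in Eahy926 controls and IL1b libraries and at 785.3 and 587.2 bp with IL1b in TeloHAEC (difference between lines −2.14, adjusted p 0.00032). Over the 14 genes of this list 11 windows were covered. None of the 49 tested bins at these genes was called with IL1b in Eahy926, where 0.839% of all tested bins were. That count of 0 is no result by itself.

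**Figure D2:**
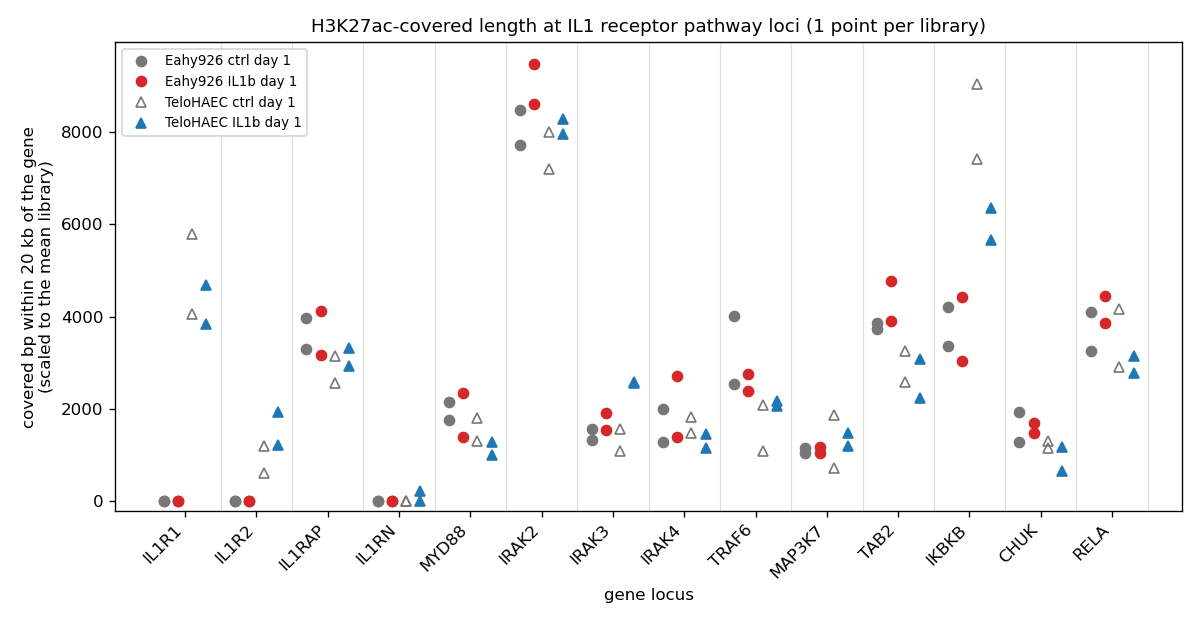
Scaled covered bp within 20 kb of each of the 14 IL1 receptor pathway genes (x axis), 1 point per library, circles for Eahy926 and triangles for TeloHAEC. IL1R1, IL1R2 and IL1RN sit at 0 in the 4 Eahy926 libraries, while IRAK2 lies between 7206 and 9468 bp in the 8 libraries of both lines.

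The AP-1 genes, whose products act with NF-kB at many cytokine enhancers, and the housekeeping genes were covered at every locus. None of the 30 AP-1 bins and none of the 13 housekeeping bins was called, where 0.839% of all tested bins were. Counts of 0 are near that share and are no result about these loci. JUN had the highest window of the AP-1 list in IL1b 1.2, at 11568 bp against 7742 bp in IL1b 1.1 and 7608 and 7385 bp in the controls. Summed over the tested housekeeping bins the libraries held 14628 and 13409 bp (controls) and 14337 and 16060 bp (IL1b).

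Markers were checked against the label. Of 12 endothelial loci 10 were covered, CDH5, VWF, ERG and PECAM1 among them, and EMCN and CLDN5 were at 0 in all Eahy926 libraries. Of 8 lung epithelial loci, for the other parent of the hybrid, 6 were covered in an Eahy926 control or IL1b library. KRT8, KRT18 and EPCAM were the highest, while NKX2-1 and FOXA2 were at 0. FOXA1 held 0 and 377 bp in the day 1 controls and 0 bp with IL1b, against 3141 and 2689 bp in TeloHAEC day 1 controls. Those TeloHAEC controls also held 3612 and 3323 bp at KRT8, 3921 and 2103 bp at KRT18 and 1102 and 1311 bp at EPCAM. Coverage at KRT8 and KRT18 was thus not particular to the hybrid. The endothelial sum was 51256 and 50179 bp in controls and 50113 and 54920 bp with IL1b. The lung epithelial sum was 13747 and 14991 bp and then 14787 and 17836 bp. The smooth muscle and fibroblast sum was 3107 and 2783 bp and then 3244 and 2156 bp. Of the leukocyte loci CD3E was at 0, and the windows of PTPRC and CD14, which reach 20 kb past the genes, gave 4106 and 3963 bp and then 5289 and 3481 bp. Groups overlapped in the endothelial, lung epithelial, smooth muscle and leukocyte sums. No marker bin was called, where 0.839% of all tested bins were, so this is no result about the markers.

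Across the genome 307 of the 36576 tested bins were called, 48 higher and 259 lower with IL1b. In all 307 both IL1b libraries lay on 1 side of both controls, an order found in 14.4% of tested bins (IL1b above) and 10.6% (below). Most were all-or-none: 38 of the 48 higher bins were at 0 in both controls, and 241 of the 259 lower bins at 0 in both IL1b libraries. They were spread over the chromosomes, with lower bins on all 22 autosomes and higher bins on 18, and no input peak fell in any. The covered side had a median of 584.0 bp in higher bins and 589.0 bp in lower bins, about the length of a single peak. Genes were placed from hg19 positions known in general, not from a deposited file, so names below say only that the bin overlaps the gene.

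Of the 15 higher bins taken by the naming rule, the one with the largest difference overlaps EVL, which encodes a regulator of actin filaments (chr14:100460001-100470000). It had 0 bp in both controls and 862.7 and 1068.3 bp with IL1b (log2 difference 2.54 ± 0.21, adjusted p 9.0e-05). TNFa and VEGF libraries were covered there too, at 407.5 to 1025.5 bp, as were the day 0 controls at 435.9 and 729.3 bp. The bin at EVL thus stood out by the 2 day 1 controls. LSP1, a leukocyte and endothelial actin-binding protein (chr11:1890001-1900000), went from 0 bp in the day 1 controls to 750.0 and 702.4 bp with IL1b. The LSP1 bin was at 0 with TNFa but covered in the untreated day 0 controls (490.2 and 377.6 bp) and with VEGF (315.4 and 327.3 bp). At LSP1 the difference from TNFa was 2.21 (adjusted p 7.2e-06) and that from the day 0 controls 0.55 (adjusted p 0.034). LRP5, a coreceptor of Wnt signalling, and EPDR1 each had 0 bp in the controls. With IL1b LRP5 had 716.2 and 676.4 bp and EPDR1 594.8 and 1474.2 bp, and neither passed against the day 0 controls.

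Few higher bins were free of coverage in the day 0 controls as well. ARL11, a small GTPase of the ARF family (chr13:50200001-50210000), was at 0 in all 4 controls and in the TNFa and VEGF libraries, and at 459.5 and 482.1 bp with IL1b (log2 difference 1.75 ± 0.17, adjusted p 0.00026). The ARL11 bin was named because it was also higher with an equal number of top peaks (limma, adjusted p 0.0037), so that pass is no check. It was higher against the day 0 controls too (adjusted p 2.2e-05). A bin on chromosome 10 (chr10:44370001-44380000), with no gene named, was at 0 in all 4 controls and both TNFa libraries, at 855.2 and 506.4 bp with IL1b, and at 449.2 bp in 1 VEGF library. On chromosome 5 (chr5:152460001-152470000) a bin held 335.6 and 0 bp in day 1 controls, 0 bp in both day 0 controls and 1203.3 and 1411.7 bp with IL1b. TNFa libraries reached 749.6 and 673.2 bp in that bin. TCERG1L (chr10:132890001-132900000) had 184.7 bp in 1 day 0 control, 0 bp in the other 3 controls and 628.6 and 747.5 bp with IL1b. TNFa libraries held 305.0 and 291.6 bp at TCERG1L, and 1 VEGF library 308.3 bp.

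All 17 lower bins taken by the rule were at 0 in both IL1b libraries. DGKH, a diacylglycerol kinase (chr13:42700001-42710000), had 784.7 and 1450.0 bp in the day 1 controls, 337.5 and 733.0 bp on day 0, and 655.8 to 914.9 bp with TNFa or VEGF. The log2 difference at DGKH was −2.67 ± 0.27 (adjusted p 0.00034). The bin with the smallest adjusted p, 8.9e-06, lies on chromosome 1 (chr1:238750001-238760000), and no gene is named there. It had 1037.6 and 1140.5 bp in the day 1 controls and 1131.9 to 1305.7 bp in the other 6 Eahy926 libraries without IL1b. That bin was covered in all 8 libraries without IL1b and in neither with it. JAM3, a junctional adhesion molecule of endothelial cells (chr11:133990001-134000000), had 1215.3 and 619.0 bp in controls, 893.6 and 681.1 bp on day 0, and 367.0 to 765.3 bp with TNFa or VEGF.

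Other lower bins overlap named genes as well. A bin where OSMR, a receptor chain for oncostatin M, meets RICTOR, a subunit of the mTORC2 kinase complex (chr5:38930001-38940000), held 794.6 and 899.2 bp in controls. TNFa libraries were as high there, at 932.7 and 984.4 bp, and the difference from TNFa was −2.53 (adjusted p 0.00074). PRKAB2, a regulatory subunit of the energy-sensing kinase AMPK, held 826.6 and 896.0 bp, and TOMM70, an import receptor of mitochondria, 884.6 and 919.8 bp. SDK1, a cell adhesion protein, held 888.3 and 862.4 bp (log2 difference −2.43 ± 0.28, adjusted p 0.00071). The SDK1 bin and a bin on chromosome 8 were lower and called in each of the 16 settings in which they could be tested. Equal covered length was not among these settings. An equal number of top peaks was, and both bins were named because they passed it.

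**Figure D3:**
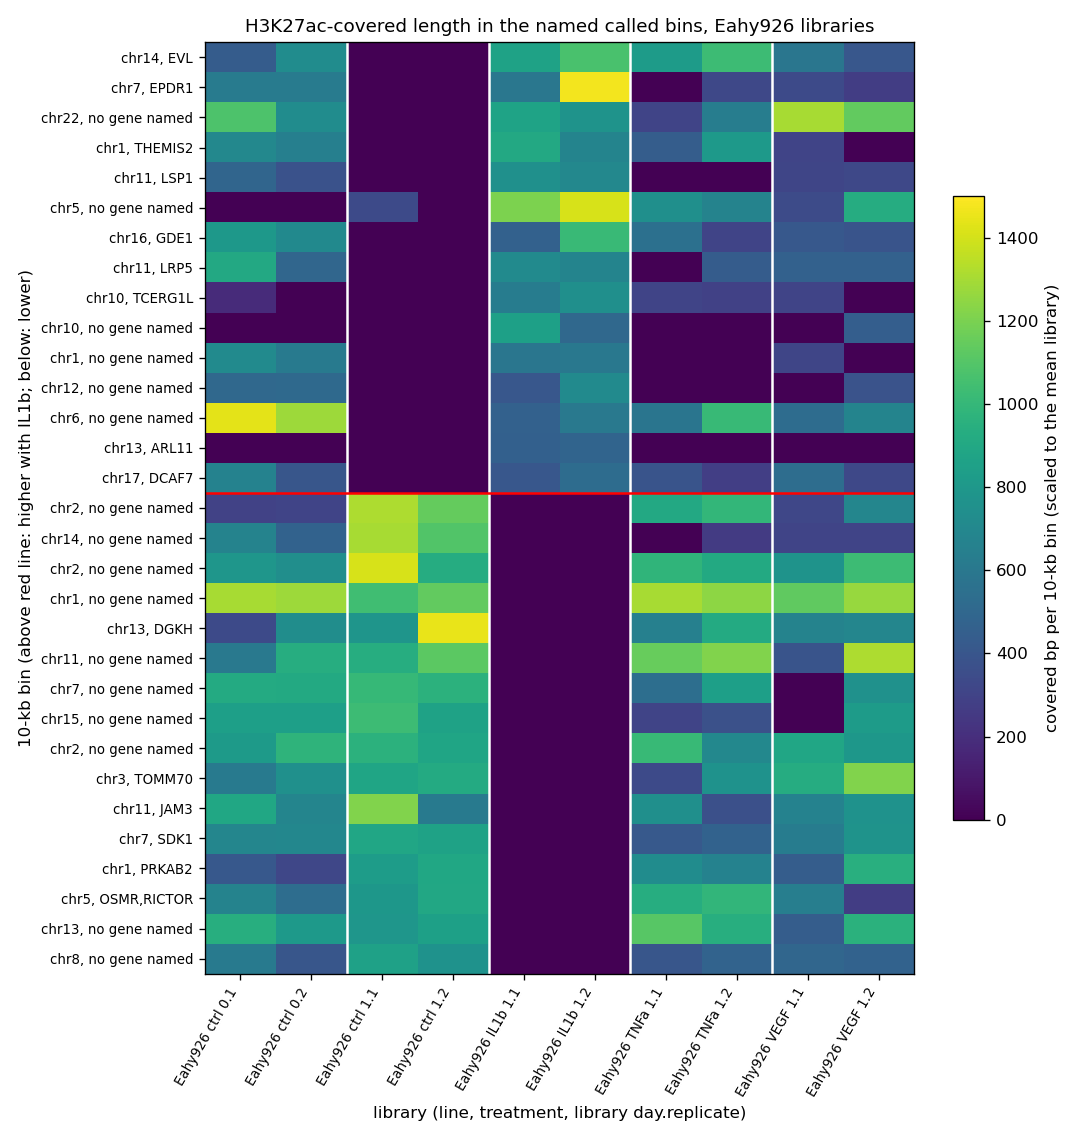
Covered bp (colour, 0 to 1500 bp per 10-kb bin, scaled) in the 10 Eahy926 ChIP libraries (columns) for 31 of the 32 bins taken by the naming rule (rows, by chromosome and gene where one is named). The 16 rows under the red line are at 0 in both IL1b libraries and mostly covered elsewhere, while most of the 15 rows above it are at 0 in the day 1 controls and covered in day 0 controls.

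The called bins were also read in the day 0 controls and against TNFa. These contrasts reuse the 2 IL1b libraries by which the bins were chosen, so the counts are a description and support no call. Of the 48 higher bins 37 (77.1%) were covered in both day 0 controls and 9 in neither, beside 74.6% of all tested bins covered in both, and 18 were also higher against these controls. Of the 259 lower bins 224 (86.5%) were covered in both day 0 controls, and 214 (82.6%) were also lower against them. In 730 further bins both IL1b libraries were at 0 and both day 1 controls covered without a call, and 45.1% of these were lower against day 0. Against day 0 alone 4404 bins were called (12% of those tested, 4.43% higher and 7.61% lower), a contrast that also spans library days and depth. Against TNFa 16 of the higher bins were higher and 183 (70.7%) of the lower bins lower, beside 12.5% of the 730 bins. Median log2 differences of TNFa from its controls in these bins, which share those controls, were 1.34 in the higher and −0.19 in the lower bins, beside 1.86 and −1.90 for IL1b.

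The count and its direction depended on the length of the lists. When the same number of top peaks (29984) was taken from every library, 77 bins were higher and 102 lower (0.249% and 0.33% of 30933 tested). Of the 48 higher bins 37 could be tested that way and 7 stayed higher, and of the 259 lower bins 201 could be tested and 35 stayed lower. Of the bins described above, those at EVL (adjusted p 0.92), LRP5 (0.11) and DGKH (1.0) and the chromosome 5 bin (0.052) did not pass at an equal number of peaks. Those at EPDR1 and TCERG1L did, and LSP1 could not be tested that way. Those at ARL11, JAM3, OSMR and RICTOR, PRKAB2, TOMM70 and SDK1 were named only because they passed there. Their pass was thus fixed by the naming rule and is no check. When every library was held to the same covered length (12.97 Mb), 68 bins were higher and 34 lower, and none of the 20 higher and 107 lower bins that could be tested was called. The excess of lower bins thus turned into an excess of higher bins. For IL1b 1.2 the equal number reached down to −log10 q of 0.834, below the threshold used elsewhere. Leaving out IL1b 1.1 gave 188 higher and 1575 lower bins, and leaving out IL1b 1.2 gave 94 and 291.

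**Figure D4:**
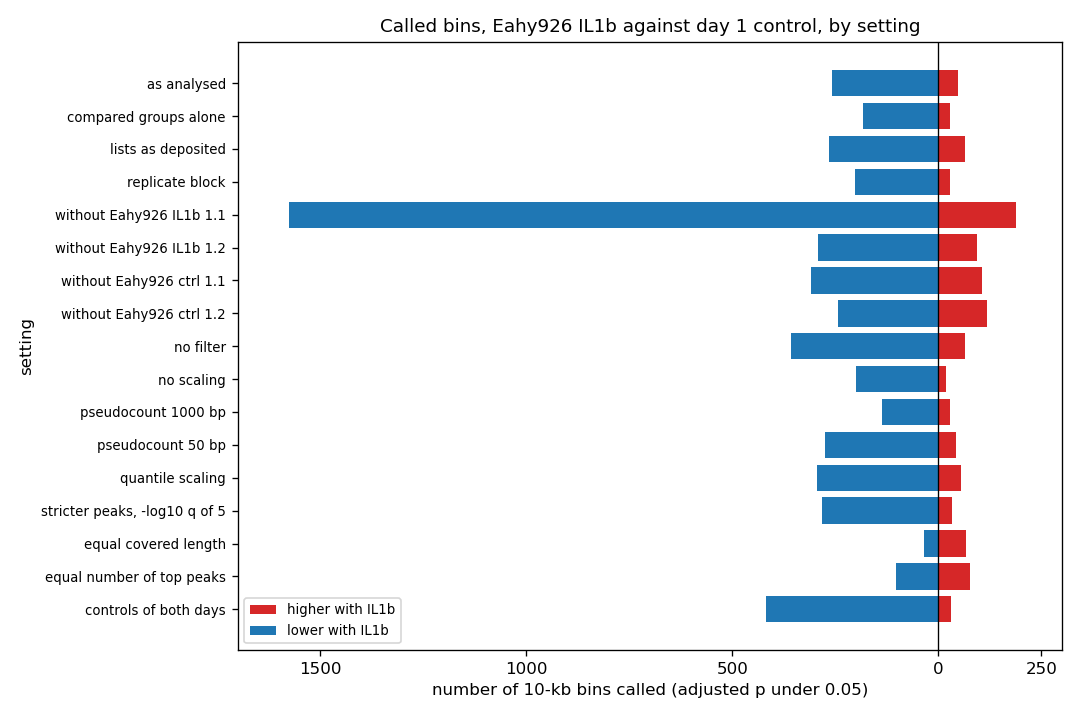
Number of 10-kb bins called (adjusted p under 0.05) lower (blue, to the left) and higher (red, to the right) with IL1b in Eahy926 under each setting. Lower bins outnumber higher ones in all settings drawn except equal covered length, where 68 were higher and 34 lower.

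The comparison with TeloHAEC asks whether the 2 lines answered IL1b at the same places. IL1b in TeloHAEC raised 1177 bins and lowered 323. At equal peak numbers the split was 805 to 542, and at equal covered length 497 to 464, so the excess of raised bins was smaller once list lengths were matched. Of the 1177 bins 774 (65.8%) were covered in both day 0 controls of TeloHAEC, beside 80.3% of all tested bins. A single bin was higher in both lines, which is 2.08% of the Eahy926 and 0.085% of the TeloHAEC higher bins, and a single bin was lower in both (0.386% and 0.31%). IL1b in TeloHAEC raised 3.22% and lowered 0.883% of all tested bins, so overlaps this small say nothing about whether the lines share places. The shared higher bin, singled out after its values were seen, lies on chromosome 6 (chr6:79410001-79420000). It went from 0 bp to 334.3 and 482.1 bp in Eahy926 and from 0 bp to 514.1 and 542.6 bp in TeloHAEC, and TNFa raised it to 415.3 and 676.2 bp in Eahy926. Of the 1177 bins raised in TeloHAEC, 623 (52.9%) had no peak in any of the 6 Eahy926 control and IL1b libraries. The median log2 difference of the 1177 was 1.87 in TeloHAEC, where they were chosen, and 0.00 in Eahy926. The difference itself was called in 566 of them, with the signed response lower in Eahy926 than in TeloHAEC. Of the lower bins of Eahy926, 9 (3.47%) were higher with IL1b in TeloHAEC, close to the 3.22% of all tested bins.

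Over all bins the difference between the lines was called in 909, with the signed response higher in Eahy926 in 130 and lower in 779. A lower response includes bins that lost coverage in Eahy926 without a change in TeloHAEC. The bin at chr1:238750001-238760000 is such a bin, with log2 differences of −2.69 in Eahy926 and 0.00 in TeloHAEC. The most different bin overlaps RNF145, a ubiquitin ligase of the endoplasmic reticulum (chr5:158600001-158610000). It held 1105.5 and 747.7 bp in Eahy926 controls and 0 bp with IL1b, and 0 bp in TeloHAEC controls and 1343.3 and 1286.0 bp with IL1b. The responses at RNF145 pointed in opposite directions and differed by −5.40 ± 1.04 (adjusted p 0.016). Day 0 controls held 878.0 and 944.0 bp in Eahy926 and 917.2 and 921.3 bp in TeloHAEC at RNF145. At the other end, a bin on chromosome 22 (chr22:32530001-32540000) went from 0 bp to 871.5 and 771.8 bp in Eahy926 and from 1703.2 and 1541.3 bp to 379.8 and 445.2 bp in TeloHAEC. The difference there was 3.92 ± 0.49 (adjusted p 0.0010). Its day 0 controls held 1081.7 and 728.5 bp in Eahy926, a range that includes both IL1b libraries, and 462.7 and 341.6 bp in TeloHAEC.

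Peaks were also compared as present or absent in merged regions. Of 37899 regions with a peak in any of the 4 libraries, 18145 had one in all 4, 269 were gained (both IL1b libraries, neither control; 0.71%) and 1798 lost (4.74%). These peaks were weak, with a median −log10 q of 2.78 (gained) and 3.22 (lost) for the weaker of the pair, against 5.49 to 6.91 for all peaks of the 4 libraries. More regions were missing from the short list: 3991 regions had a peak in both controls and IL1b 1.1 but not in IL1b 1.2, and 859 had the reverse. Of the gained regions 191 had a peak in both day 0 controls and 43 in neither, and 10 had no peak in any other Eahy926 library. Of the lost regions 389 had a peak in all 6 other Eahy926 libraries.

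The 5 widest gained regions without a day 0 peak were 575 to 940 bp wide. PGRMC2, a membrane-bound heme and progesterone receptor component (chr4:129196829-129197553), had 602 and 432 bp with IL1b and 259 to 400 bp with TNFa or VEGF. Its peaks were the strongest of the 5, with −log10 q of 9.23 and 7.17. A region at CHD2, a chromatin remodeler (chr15:93451577-93452151), had 384 and 520 bp and no peak in any other Eahy926 library. The region at COL13A1, a transmembrane collagen, was also covered with TNFa and VEGF. Among the 5 widest lost regions, one lies at the start of TEK, the endothelial receptor for angiopoietins (chr9:27109163-27112485). It held 2565 and 2220 bp on day 0, 805 and 1198 bp in the day 1 controls, 0 bp in both IL1b libraries and 346 and 1341 bp with TNFa. In the bin test no bin at TEK was called. The bin that holds most of this region stayed covered by other peaks. It had 1752.0 and 1825.5 bp in the day 1 controls and 1711.6 and 1423.9 bp with IL1b (log2 difference −0.17). The bin with the largest difference went from 662.6 and 723.9 bp to 0 bp, a log2 difference of −2.16 ± 0.71 (adjusted p 0.32).

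Whole peak sets did not separate treated from control libraries. The Jaccard index (shared bp as a share of all bp under peaks in a pair of libraries) was 0.571 between the controls and 0.498 between the IL1b libraries. The 4 pairs of a control with an IL1b library averaged 0.527, from 0.465 to 0.5786. IL1b 1.1 was thus closer to control 1.1 than to IL1b 1.2. The TNFa pair had 0.5815, the VEGF pair 0.5851 and the deeper day 0 pair 0.7388. At 29984 top peaks per library the control pair had 0.567, the IL1b pair 0.515 and the mean of the 4 mixed pairs was 0.541.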

How the data were processed

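H3K27ac ChIP-seq peak lists of 24 libraries were used. Bowtie2 and MACS2 on hg19 are named in the submitters' processing notes. Per the file headers, MACS 2.1.1.20160309 ran on each library alone, without input, at a p threshold of 0.001, with at most 1 tag per position and a local background of 10000 bp. The deposited lists give the pileup (a signal, not scaled for depth), −log10 p, −log10 q and fold enrichment, the ratio of pileup to background. The deposited start and end positions are hg19. No read counts per region were used.

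From these lists, autosomal intervals (22 chromosomes) with −log10 q of at least 2 were kept once each, summed as bp in 10000-bp bins and scaled by the library's total. A bin was tested if 2 or more ChIP libraries had 500 bp there. Values of log2(bp + 200) were fitted in limma 3.58.1 (R 4.3.3) with 10 group means (line, treatment and library day) over 20 libraries and 10 residual degrees of freedom. Called means a Benjamini-Hochberg adjusted p under 0.05, adjusted over every tested bin. Groups at 0 in both libraries add no spread, so a bin covered in few groups can have a small p. Fold differences are on the log2(bp + 200) scale. Tables and figures were made in Python 3.11.15 (pandas 2.3.3, numpy 2.4.6, matplotlib 3.10.9).

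Among called bins whose groups did not overlap, those named were the 10 largest differences per direction and up to 10 per direction also called with equal numbers of top peaks. Regions named were the 5 widest gained without a day 0 peak and the 5 widest lost with a peak in both day 0 controls. A bin and a region taken by these rules are not reported here. Differences between lines named were the 5 largest per direction. NFKBIA, TNFAIP3, ICAM1, VCAM1, SELE, CCL2, CXCL8, IL6, IL1R1, IRAK2 and list genes with a called bin were named, and other genes were named after their values were seen. Members, lists and tests were chosen with earlier results of these data known. Gene positions on hg19 come from general knowledge. Against RefSeq on GRCh38.p14 all 110 were on the same chromosome, 101 had a length within 10% or 3 kb, and 89 of 89 neighbouring pairs were in the same order. Alternatives were other peak thresholds, equal list sizes, scalings, pseudocounts, filters, bin sizes, control days, a replicate block and leaving out each library.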

Additional observations from a re-analysis of the deposited data

Results flagged for a closer look

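The response to IL1b differed between Eahy926 and TeloHAEC by the test of the difference itself in 10 named bins, the 5 largest per direction. Larger in Eahy926 (log2 response of Eahy926 minus that of TeloHAEC) were a bin on chromosome 22 at 32530001 (3.92), one on chromosome 1 at 33720001 (3.86), one at WDR26 (3.82), one on chromosome 17 at 62830001 (3.48) and one at PPP1R7, a regulator of protein phosphatase 1 (3.20). In each of these 5 the Eahy926 day 1 controls were at 0, the IL1b libraries were covered, and the TeloHAEC libraries were less covered with IL1b than in controls.

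Lower in Eahy926 than in TeloHAEC, by sign, were the bin at RNF145 (−5.40) and a bin on chromosome 3 at 171550001 (−4.62). So were bins on chromosome 2 at 208110001 (−4.58), at PTPN14, a phosphatase that restrains YAP (−4.48), and on chromosome 1 at 211820001 (−4.23). In each of these 5 both Eahy926 IL1b libraries were at 0. On chromosome 2 and at PTPN14 the loss in Eahy926 was the larger change, at −2.75 in each, beside 1.83 and 1.73 in TeloHAEC. At PTPN14 the Eahy926 controls held 1520.0 and 849.4 bp, and TeloHAEC went from 0 and 369.3 bp to 821.7 and 1027.4 bp. Adjusted p-values of the 10 differences (limma) ran from 0.0010 to 0.036. Of the 10 bins, those on chromosome 22, on chromosome 17 and on chromosome 2 at 208110001 were also called in Eahy926 alone. Both day 0 controls of each line were covered in all 10 bins. Of the bins that could be tested, 0 of 8 stayed called with −log10 q of 5, 0 of 5 at equal covered length, 3 of 9 at equal peak numbers, and 6 of 10 without TeloHAEC control 1.1, the library with the short list.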

How the results depend on the processing

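Main counts were 307 bins against day 1 controls, 909 for the difference between lines and 855 against TNFa. They were 164, 428 and 758 with a pseudocount of 1000 bp, 162, 412 and 492 with 50-kb bins, 676, 2319 and 1600 over merged regions, 102, 515 and 276 at equal covered length, and 179, 675 and 471 at equal numbers of top peaks. Without the filter the difference between lines gave 1556. Equal length split these counts 68 higher to 34 lower, 287 to 228 and 143 to 133, and an equal number 77 to 102, 262 to 413 and 143 to 328. Against the day 0 controls alone 4404 bins were called (1619 higher, 2785 lower), and 5 named bins changed sign, the chromosome 22 bin (−0.10), those at GDE1 (−0.08) and DCAF7 (−0.12), one on chromosome 1 at 1840001 (−0.12) and one on chromosome 6 at 103660001 (−1.09, adjusted p 0.0052). Of the named bins that could be tested, 3 stayed called and 23 did not with −log10 q of 5. At equal numbers of top peaks 17 stayed called and 13 did not, but the 17 include bins named because they passed there. The split was 0 and 14 at equal length, 19 and 13 with the lists as deposited, and 15 and 17 with the compared groups alone. Leaving out 1 library gave 362 to 1763 bins against controls, with the most without IL1b 1.1 (1763), 691 to 4745 for the difference between lines (4745 without TeloHAEC control 1.2, 2085 without IL1b 1.1) and 624 to 2246 against TNFa. The lone library left is then assumed to vary like the other groups. In TeloHAEC, 1500 bins and 20 list bins were called with IL1b, 1347 and 16 at equal peak numbers and 961 and 8 at equal covered length (added after the data were seen). Gained regions numbered 269 and were 158 with −log10 q of 5, 681 with an equal number, 994 with equal length and 748 to 2241 with a library left out. Lost regions numbered 1798 and were 809, 365, 10417 (day 0 controls) and 2657 to 5789. Of the 0 called list bins, 1 was called within 50 kb, 1 with an equal number of top peaks, 1 with the compared groups alone, 2 with −log10 q of 5, and 0 to 10 with a library left out (10 lower without IL1b 1.1, 2 higher and 2 lower without IL1b 1.2), settings of which those after the first 2 were added after the data were seen. Apart from the equal lists, leaving out libraries, filters and bin sizes given above, the cause of these shifts was not tested.

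Same-numbered libraries did not visibly deviate together in covered length (correlations of −0.0298, 0.0497 and 0.0515 with IL1b, TNFa and VEGF libraries). These correlations do not exclude a pairing by replicate number. With a replicate block 231, 634 and 647 bins were called.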
